A study of Mus musculus with 4 samples.

Results

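The genes described here encode the machinery that makes, splices, cleaves and unwinds RNA: hnRNP proteins, SR proteins, SF3, U2AF, Sm, LSm and PRPF proteins of the spliceosome, the CstF and CPSF factors of 3′ end cleavage, the DDX and DHX helicases, and the subunits of RNA polymerases I, II and III. They were chosen by symbol alone (beginning with Hnrnp or Hnrp, Srsf, Sf3, U2af, Snrp, Lsm and a digit, Prpf, Cstf, Cpsf, Ddx, Dhx or Polr1 to Polr3), a rule that uses no measured value. The choice was nevertheless made with earlier results of these data known. Of 86 such genes considered here, each with a probe that could be named, 65 were detected on at least 2 arrays and tested, among 15215 tested features (3983 genes with a symbol and otherwise unnamed probes). Expression was measured on 4 Illumina bead arrays with RNA of mouse B cells, C57BL/6 background, genotype prdm1-/- in every sample, so that both groups lack the gene of Blimp-1, the transcription factor that drives plasma cell differentiation. Culture was in CD40 ligand with IL-4 and IL-5, each cytokine at 10 U/mL, and cells were sorted on day 4 by GFP, into GFP-positive cells, labelled pre-plasmablasts (2 arrays), and GFP-negative cells, labelled B cell blasts (2 arrays). The labels do not name the locus that carries GFP, and they do not say whether replicates came from separate mice or cultures, so the p-values reflect the spread among 4 arrays, possibly only technical.

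Pre-mRNA is spliced by the spliceosome, whose small nuclear RNAs sit on rings of Sm or LSm proteins, while SR proteins and hnRNPs bind the transcript and promote or block the use of nearby splice sites. In B cells the same choices decide what kind of antibody is made: the heavy-chain transcript ends either at a proximal polyadenylation site, giving the secreted chain, or is spliced to the membrane exons, and cleavage factors, hnRNP F and H proteins and the elongation factor ELL2 are known to act on that choice. The comparison of GFP-positive with GFP-negative cells asks how far transcripts of this machinery differ between the sorted populations, one of which the series title describes as developmentally arrested.

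Most transcripts of this machinery did not differ detectably between the populations. Of the 65 genes, 1 rose in GFP-positive cells, Lsm12, an LSm-domain protein, 0 fell, and 64 were not called (limma, Benjamini-Hochberg adjusted p under 0.05 over all tested features). Among all tested features the same test called 11.1% in either direction, 5.83% as higher and 5.29% as lower. With the replicate number as a block, 11 of the 65 genes were lower and 1 higher, and of all 15215 features 2125 and 1861. The labels do not say that a number pairs arrays, so all values here come from the fit without the block, unless stated. Differences between replicates 1 and 2 nevertheless correlated between the groups at 0.437 across all features. A gene described below as not called was thus not called in the fit without the block. The 11 genes that were lower with the block are named in the closing section. At an unadjusted p under 0.05, 10 of the 65 genes passed, 9 of them with a negative sign, against 26.6% of all tested features, 14.6% with a negative sign. The log2 changes of the 65 genes (GFP-positive minus GFP-negative, as all changes here) had a median of -0.05 and quartiles of -0.17 and 0.03, and ran between -0.71 and 0.39. The median over all tested features was -0.02, with quartiles of -0.15 and 0.11.

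**Figure D1:**
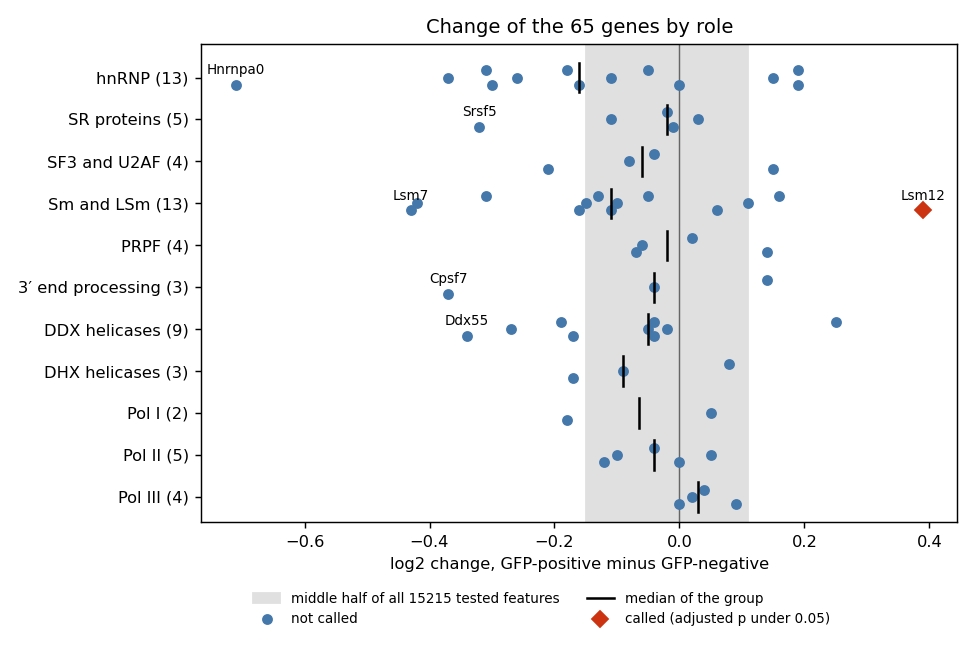
Log2 change of each of the 65 genes (points), grouped by role down the page with the number of genes in brackets. The diamond marks the called gene, Lsm12 at 0.39, black bars the median of each group, and the grey band the quartile range of all tested features. Group medians lie between -0.16 (hnRNP) and 0.03 (Pol III).

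The precision of the 4 arrays sets what these values can show. The 95% interval of a gene's change reached 0.25 log2 units to either side in the median gene, 0.19 at best and 0.78 at worst (Srsf5). For 63 of the 65 genes (96.9%) the whole interval lay within 1 log2 unit of 0, and for 46 (70.8%) within 0.5. Across all tested features these shares were 93.4% and 68.1%. Simulated arrays drew independent noise with a spread taken from the fit, without a shared replicate effect or a link between spread and brightness. In them the test found 0 of 50 features changed by 0.25 log2 units. It found 4 of 50 changed by 0.5 and 44 of 50 changed by 1, and it called 9 features that were not changed. Only 50 of 15215 features were changed at each size there, while 11.1% of all tested features were called in the data. The Benjamini-Hochberg threshold is stricter when fewer features change, and recovery at a share like that of the data was not tested. Changes between the quartiles of the 65 genes (-0.17 and 0.03) were smaller than the narrowest reach, 0.19, and could not be called. In bulk RNA of sorted cells, fewer cells of one kind and less transcript per cell cannot be told apart.

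The sort and the cell identity were checked on the arrays. The eGFP reporter probe read 12.75 and 12.72 in GFP-positive cells, against 9.28 and 9.39 in GFP-negative cells. Of the B-cell marker list 4 of 10 genes had a named probe and all 4 (Cd74, Ighm, Igkc, Ebf1) were detected, averaging 14.59 and 14.60 in GFP-positive and 14.73 and 14.75 in GFP-negative arrays. Cd74, Ighm and Igkc read between 15.80 and 16.07 on every array, near the top of the scale, while Ebf1, an early B-cell transcription factor, fell: it read 10.42 and 10.43 in GFP-positive cells, against 11.13 and 11.15 in GFP-negative cells (-0.72, adjusted p = 0.00562). Of 4 markers of antibody-secreting cells with a named probe, 3 were detected and all 3 rose (Xbp1, Jchain and Ell2), with means of 11.25 and 11.02 in GFP-positive and 10.10 and 10.09 in GFP-negative arrays. Xbp1, a transcription factor of secretory cells, read 14.61 and 14.84 in GFP-positive cells, against 13.71 and 13.98 in GFP-negative cells (0.88, adjusted p = 0.0161). Jchain, which joins antibody subunits and was detected on 2 arrays, read 9.84 and 9.34 in GFP-positive cells, against 8.16 and 7.95 in GFP-negative cells (adjusted p = 0.00795). Its GFP-negative values lie in the range of undetected probes. It may thus have passed the detection filter only through the GFP-positive arrays, and its rise is weak support. Named probes for 2 T-cell markers and 1 NK-cell marker were not detected. Of 5 myeloid markers with a probe only Itgam was detected, on 2 arrays, at 8.30 and 8.28 in GFP-positive cells, against 7.96 and 7.98 in GFP-negative cells (adjusted p = 0.0562). The GFP-positive values lie close to the range of undetected probes (central 95% of values between 7.879 and 8.162) and the GFP-negative values inside it. Like Jchain, Itgam may have passed the detection filter only through the GFP-positive arrays. Of 2 erythroid markers Hbb-b1 was detected, at 8.89 and 8.76 in GFP-positive and 9.48 and 8.81 in GFP-negative cells (adjusted p = 0.439). Whether such cells, or the difference in antibody-secreting markers, had a part in any change below was not tested.

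RNA polymerase III makes tRNAs, 5S rRNA and other short RNAs. Polr3b, its second-largest catalytic subunit, read 9.27 and 9.24 log2 units in GFP-positive cells, against 9.18 and 9.16 in GFP-negative cells. The groups did not overlap, and the gene was not called (change 0.09, SE 0.08, 95% interval -0.10 to 0.28, adjusted p = 0.535). Polr3d had a change of 0.04, Polr3k of 0.02 and Polr3f of 0.00, with overlapping groups in all 3 and no interval that reached above 0.29.

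None of the 7 tested subunits of polymerases I and II was called. Polr2a, the catalytic subunit of the polymerase that transcribes protein-coding genes, read 8.50 and 8.43 in GFP-positive cells, against 8.44 and 8.38 in GFP-negative cells, and the groups overlapped (change 0.05, 95% interval -0.15 to 0.26, adjusted p = 0.745). Its signal was dim, where changes on this array scale may be understated. The same holds for the other dim genes here, and it was not tested. Polr2l, a small subunit shared by all nuclear polymerases, read 12.27 and 12.30 in GFP-positive cells, against 12.32 and 12.45 in GFP-negative cells (change -0.10, adjusted p = 0.532). Polr2h, also shared by all nuclear polymerases, had the largest difference among the 5 polymerase II subunits, at -0.12 (adjusted p = 0.6), with values of 9.32 and 9.61 in GFP-positive cells and 9.56 and 9.60 in GFP-negative cells. Polr1a, the largest subunit of the polymerase that makes the rRNA precursor, read 10.04 and 10.35 in GFP-positive cells, against 10.29 and 10.46 in GFP-negative cells. These values overlapped too (change -0.18, SE 0.13, adjusted p = 0.473). Polr2k and Polr2i had changes of -0.04 and 0.00, and Polr1e of 0.05.

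Sm proteins form the ring of the U1, U2, U4 and U5 particles, and LSm proteins form related rings on U6 RNA and on mRNA under decay. Lsm12, an LSm-domain protein known in human cells as an NAADP-binding protein, was the gene that rose. It read 10.79 on both GFP-positive arrays, against 10.44 and 10.36 in GFP-negative cells, a change of 0.39 (SE 0.08, 95% interval 0.19 to 0.59, adjusted p = 0.0378). Both dimmer Lsm12 probes lay the same way. The second read 10.01 and 9.87 in GFP-positive cells, against 9.59 and 9.43 in GFP-negative cells (0.43, SE 0.10), and the third 9.18 and 9.31, against 9.06 and 8.76 (0.33, SE 0.13). On each of the 3 probes the groups did not overlap. With any 1 of the 4 arrays left out, the change of the gene lay between 0.35 and 0.43. The adjusted p of the gene passed the threshold narrowly: it was 0.0606 for the mean of the 3 probes, 0.0874 when the variance was allowed to follow intensity, and between 0.0907 and 0.184 when any 1 of the 4 arrays was left out.

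The other 12 Sm and LSm genes were not called, and 9 of the 13 had a negative sign. Lsm7, a subunit of both LSm rings, read 11.34 and 11.74 in GFP-positive cells, against 11.98 and 11.96 in GFP-negative cells (change -0.43, SE 0.14, adjusted p = 0.126). The GFP-positive arrays differed from each other by nearly as much as the groups did. Snrpg, of the Sm ring, read 14.19 and 14.55 in GFP-positive cells, against 14.74 and 14.84 in GFP-negative cells (-0.42, SE 0.14, adjusted p = 0.121), and Snrpd3, its partner in the ring, 13.01 and 13.28, against 13.45 and 13.47 (-0.31, SE 0.11, adjusted p = 0.152). In all 3 genes the groups did not overlap and GFP-positive replicate 1 was the lowest array. Across all tested features 31% were lower without an overlap. Other ring members lay closer to 0: Snrpf at -0.16, Snrpd2 at -0.15, Snrpb at -0.05 and Snrpe, detected on 2 arrays at the dim end, at 0.06. The U1 proteins Snrpa and Snrpc had changes of -0.10 and 0.11, Lsm3 of 0.16, Lsm10, of the U7 particle that processes histone mRNA, of -0.11, and Lsm14b of -0.13.

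Heterogeneous nuclear ribonucleoproteins (hnRNPs) coat nascent transcripts, and 13 were tested. None was called, 9 had a negative sign and the median change was -0.16. Hnrnpa0, which binds AU-rich elements, had the largest difference of all 65 genes. It read 10.08 and 10.29 in GFP-positive cells, against 10.52 and 11.26 in GFP-negative cells, a change of -0.71 (SE 0.25, 95% interval -1.33 to -0.09, adjusted p = 0.145). GFP-negative replicate 2 stood above the other 3 arrays: the change was -0.33 without it (adjusted p = 0.284) and -1.08 without GFP-negative replicate 1 (adjusted p = 0.0114). Hnrnpc, which binds uridine tracts in introns, read 14.05 and 14.25 in GFP-positive cells, against 14.53 and 14.51 in GFP-negative cells (-0.37, SE 0.10, adjusted p = 0.0726). Its other probe read 14.06 and 14.12, against 14.44 and 14.34 (-0.30, SE 0.08). Both probes kept the groups apart without passing the threshold.

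Hnrnph1, a reader of G-runs from the hnRNP F and H family that acts on the heavy-chain polyadenylation choice, read 12.06 and 11.97 in GFP-positive cells, against 12.23 and 12.41 in GFP-negative cells (-0.30, SE 0.10, adjusted p = 0.117). Its other probe had a change of -0.27 (SE 0.11). Its paralog Hnrnph2 had a change of 0.00 and, on a dimmer probe, of 0.16. The poly(C)-binding Hnrnpk read 10.71 and 10.59 in GFP-positive cells, against 10.79 and 11.14 in GFP-negative cells (-0.31, adjusted p = 0.219), with -0.06 on its other probe. Hnrnpa1, a splicing repressor, had a change of -0.16, Hnrnpa2b1 of -0.05, Hnrnpm of -0.11, Hnrnpab of -0.18 and Hnrnpdl of -0.26. On the positive side were Hnrnpa3 (0.19), Hnrnpu (0.19) and Hnrnpul1 (0.15), with adjusted p = 0.258, 0.536 and 0.387.

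The array values around each gene's mean show which of these differences rest on a single array.

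**Figure D2:**
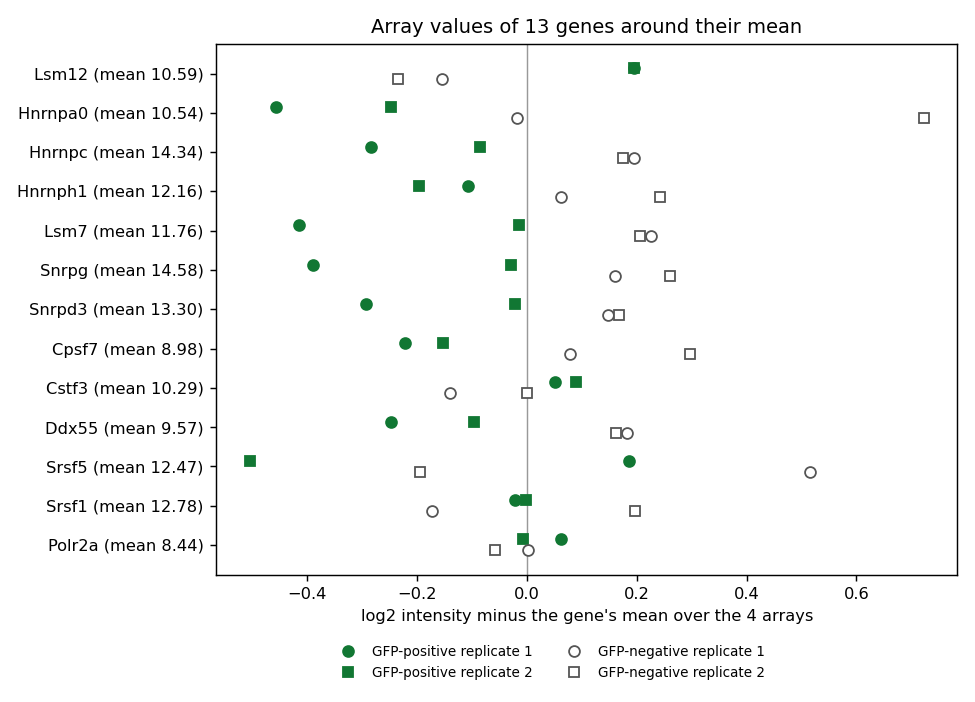
Log2 intensity on each array minus the gene's mean over the 4 arrays, for 13 of the 65 genes, with GFP-positive arrays filled and GFP-negative arrays open, circles for replicate 1 and squares for replicate 2. For Lsm12 both GFP-positive arrays read 10.79 and their points coincide. Lsm12 shows tight groups, Hnrnpa0 one GFP-negative array far to the right (11.26), and Srsf5 a split by replicate number.

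The windows just upstream of 3 of these genes are shown because Snrpg, Hnrnpc and Snrpd3 were, among the genes with a negative sign and an unadjusted p under 0.05, the ones with the brightest probes and 1 listed start. They are the 250 bases before the gene start in RefSeq (GRCm38.p6), read 5′ to 3′ on the gene's strand, with capitals for motif matches on either strand. The motifs searched were the CCAAT box with those letters, the E-box with the letters CACGTG, the ETS motif, which reads CCGGAAG here, the GC box, written GGGCGG, and finally the TATA box, for which the search used TATAAA.
Snrpg (chr6:86371290-86371539, plus strand): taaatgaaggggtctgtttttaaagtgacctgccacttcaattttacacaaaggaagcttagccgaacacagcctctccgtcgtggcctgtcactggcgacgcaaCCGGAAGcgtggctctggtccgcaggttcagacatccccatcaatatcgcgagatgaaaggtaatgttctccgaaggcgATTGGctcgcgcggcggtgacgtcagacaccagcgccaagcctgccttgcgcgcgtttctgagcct
Snrpd3 (chr10:75517792-75518041, plus strand): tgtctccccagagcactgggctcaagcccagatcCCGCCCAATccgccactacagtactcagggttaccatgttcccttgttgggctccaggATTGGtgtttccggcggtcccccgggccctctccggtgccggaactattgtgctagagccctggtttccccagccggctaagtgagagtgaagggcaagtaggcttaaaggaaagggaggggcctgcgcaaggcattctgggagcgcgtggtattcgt
Hnrnpc (chr14:52104022-52104271, minus strand): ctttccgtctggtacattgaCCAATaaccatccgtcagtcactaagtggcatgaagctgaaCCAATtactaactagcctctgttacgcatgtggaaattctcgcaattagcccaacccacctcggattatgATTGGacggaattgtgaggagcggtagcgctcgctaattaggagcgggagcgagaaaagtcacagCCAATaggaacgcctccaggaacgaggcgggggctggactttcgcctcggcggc
The Snrpg window holds an ETS match at -145 to -139 from the start and a CCAAT box on the opposite strand at -66 to -62. The Snrpd3 window holds 2 CCAAT matches, one of which, at -212 to -208, overlaps a GC box on the opposite strand at -216 to -211. Windows were found for 58 of the 65 genes, 71 windows in all, and not for Lsm12. A CCAAT match lay in 47.9% of them, in 35% of the windows of the other tested genes with a symbol and in 33.8% of all listed windows. The ETS letters were in 18.3%, 14.6% and 6.91%, a GC box in 60.6%, 57.8% and 32.7%, an E-box in 8.45%, 7.9% and 6.02%, and a TATA box in 9.86%, 6.4% and 12.4% of these sets in the same order. The median GC content was 61.2% for the members, 60% for the other tested genes and 52.4% for all windows. The matches are a description of letters and were not tied to any change.

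SR proteins bind exonic enhancers, and none of the 5 tested was called. Srsf1, the founding member, read 12.76 and 12.78 in GFP-positive cells, against 12.61 and 12.98 in GFP-negative cells (change -0.02, 95% interval -0.37 to 0.32, adjusted p = 0.944). Srsf2 read 13.18 and 13.07 in GFP-positive cells, against 13.05 and 13.15 in GFP-negative cells (0.03, adjusted p = 0.881), and Srsf3 8.70 and 8.90, against 8.93 and 8.88 (-0.11, adjusted p = 0.554). The groups overlapped in all 5 genes. Srsf5 had the largest SE of the 65: it read 12.66 and 11.97 in GFP-positive cells, against 12.99 and 12.28 in GFP-negative cells. Both replicate 1 arrays were above both replicate 2 arrays, by more than the groups differed (-0.32, SE 0.31, adjusted p = 0.586). Srsf10 had a change of -0.01.

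Recognition of the 3′ splice site by U2AF and of the branch point by SF3 was represented by 4 genes, none called. U2af2, the subunit that binds the polypyrimidine tract, read 10.78 and 10.53 in GFP-positive cells, against 11.12 and 10.62 in GFP-negative cells (-0.21, SE 0.19, adjusted p = 0.547), and U2af1, which reads the AG dinucleotide, had a change of -0.04. Sf3b5 read 11.48 and 11.76 in GFP-positive cells, against 11.75 and 11.67 in GFP-negative cells (-0.08, adjusted p = 0.722), and Sf3a1 had a change of 0.15. The groups overlapped for each of these 4 genes. Of 4 PRPF genes none was called, and their changes ran between -0.07 and 0.14. Prpf3, of the U4/U6 particle, read 9.55 and 9.56 in GFP-positive cells, against 9.60 and 9.47 in GFP-negative cells (0.02, adjusted p = 0.918). Prpf38a, needed for activation of the spliceosome, read 8.78 and 8.47 in GFP-positive cells, against 8.60 and 8.36 in GFP-negative cells (0.14, adjusted p = 0.608). Prpf31, also of the U4/U6 particle, had a change of -0.06 and Prpf4 of -0.07.

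At the 3′ end of the transcript, CstF binds downstream of the cleavage site, CPSF reads the AAUAAA signal, and Cpsf7 belongs to cleavage factor I, which binds UGUA upstream. Cpsf7 read 8.76 and 8.83 in GFP-positive cells, against 9.06 and 9.28 in GFP-negative cells, a change of -0.37 (SE 0.10, adjusted p = 0.0885). The groups did not overlap, and the gene missed the threshold. Cstf3, the scaffold of CstF, read 10.34 and 10.38 in GFP-positive cells, against 10.15 and 10.29 in GFP-negative cells (0.14, SE 0.09, adjusted p = 0.404), with -0.06 on its other probe. Cstf1 had a change of -0.04. Cstf2, the RNA-binding subunit long tied to heavy-chain processing, was not analysed here. In a separate list of 19 other cleavage and polyadenylation factors, 12 were tested, 1 rose, 1 fell and 10 were not called. Pabpn1, the nuclear poly(A)-binding protein, fell: it read 12.43 and 12.52 in GFP-positive cells, against 13.17 and 13.28 in GFP-negative cells (-0.75, SE 0.09, adjusted p = 0.00774). Ell2 rose, with 9.30 and 8.87 in GFP-positive cells, against 8.42 and 8.34 in GFP-negative cells (0.70, SE 0.15, adjusted p = 0.0443), and it missed the threshold with no detection filter (adjusted p = 0.0741) and when any array other than GFP-positive replicate 2 was left out (adjusted p between 0.0795 and 0.135). The window upstream of Pabpn1 (chr14:54893893-54894142, plus strand), shown for the gene of this list that fell, with CCAAT matches in capitals at -97 to -93 and -23 to -19, reads as follows.
Pabpn1: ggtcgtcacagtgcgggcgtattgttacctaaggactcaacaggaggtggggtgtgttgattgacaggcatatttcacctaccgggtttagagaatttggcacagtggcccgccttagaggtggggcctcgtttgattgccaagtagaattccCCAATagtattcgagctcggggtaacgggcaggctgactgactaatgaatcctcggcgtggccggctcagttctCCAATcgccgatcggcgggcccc

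DDX and DHX helicases remodel RNA and its protein complexes, and 12 were tested. None was called, and 10 of the 12 had a negative sign. Ddx55, which acts in the large ribosomal subunit's assembly, read 9.32 and 9.47 in GFP-positive cells, against 9.75 and 9.73 in GFP-negative cells (-0.34, SE 0.09, adjusted p = 0.0712), the smallest adjusted p among the 64 genes that were not called. Ddx18, also of ribosome assembly, read 11.02 and 11.19 in GFP-positive cells, against 11.35 and 11.39 in GFP-negative cells (-0.27, SE 0.09, adjusted p = 0.14). Ddx54, Ddx47 and Dhx37 had changes of -0.19, -0.17 and -0.17. In these 5 genes and in Ddx19b (-0.02) the GFP-positive arrays were below both GFP-negative arrays, as in 31% of all tested features, and none passed the test. Ddx58, the viral RNA sensor RIG-I, read 10.48 and 10.38 in GFP-positive cells, against 10.00 and 10.36 in GFP-negative cells (0.25, adjusted p = 0.326). The rest lay nearer 0: Ddx5 at -0.04, Ddx6 of mRNA decay at -0.04, Ddx19a, an mRNA export factor, at -0.05, Dhx9 at -0.09 and Dhx15, which takes the spent spliceosome apart, at 0.08.

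Several genes had more than 1 detected probe, which gives a second reading from the same RNA. Of 12 such genes, 6 had the same sign on all their probes and 6 did not (Cstf3, Polr1a, Prpf3, Prpf4, Snrpa and Snrpb). The 6 with mixed signs had changes between -0.18 and 0.15 on every probe. The 4 with the largest differences, Lsm12, Hnrnpc, Hnrnpk and Hnrnph1, had the same sign on each of their probes, although the second Hnrnpk probe lay at -0.06, against -0.31 on the first.

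**Figure D3:**
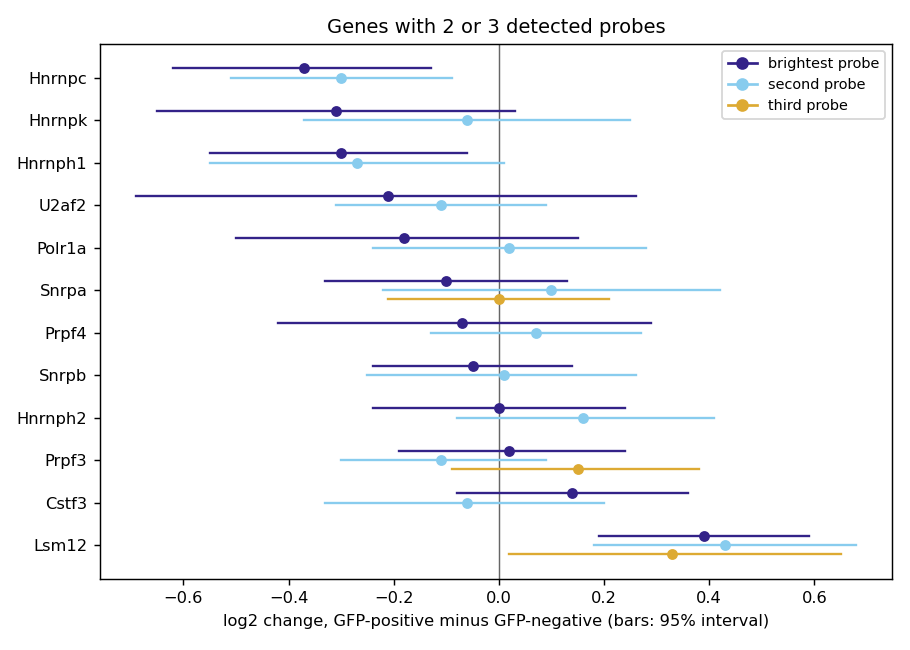
Log2 change of every detected probe of the 12 genes with 2 or 3 detected probes, with its 95% interval (bars) and the brightest probe of each gene uppermost. The 3 Lsm12 probes lie at 0.39, 0.43 and 0.33, and the Hnrnpc probes at -0.37 and -0.30.

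The sign of the change went with the brightness of the probe. Of the 17 genes with a mean signal of 12 to 15, 15 had a negative change (median -0.16), and of the 26 between 8 and 10, 13 did (median 0.00). Of all 913 tested features with a mean of 12 to 15, 568 were negative (median -0.12), and of the 11164 between 8 and 10, 5851 were. The lean was thus not limited to RNA-processing genes, although a larger share of the 17 was negative. Cyclic loess removes such trends between arrays whatever their source, so the median of all features after it is set by the method. It would remove a technical and a real lean alike, and the source of the lean was not tested. After cyclic loess the medians in the bright range were -0.04 for the 17 genes and 0.00 for all features, and 11 of the 17 were negative. Over all 65 genes 32 were then negative and 33 positive, against 43 and 22 on the deposited scale, where 53.8% of all tested features were negative. By role, cyclic loess moved the group medians closer to 0, except for Pol III (0.05 after it, against 0.03). Signs changed more in some roles than in others. After cyclic loess 2 of 5 SR genes were negative, against 4, and 1 of 4 SF3 and U2AF genes, against 3. For Pol II it was 1 of 5, against 3, and for 3′ end processing 1 of 3, against 2. Of 13 hnRNP genes 7 were negative after cyclic loess (median -0.04), against 9 (-0.16) on the deposited scale. For 13 Sm and LSm genes these counts were 8 (-0.02) against 9 (-0.11), for 9 DDX genes 7 (-0.02) against 8 (-0.05), and for 3 DHX genes 2 (-0.05) against 2 (-0.09). Lsm12 was called in both, with a change of 0.44 after cyclic loess.

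**Figure D4:**
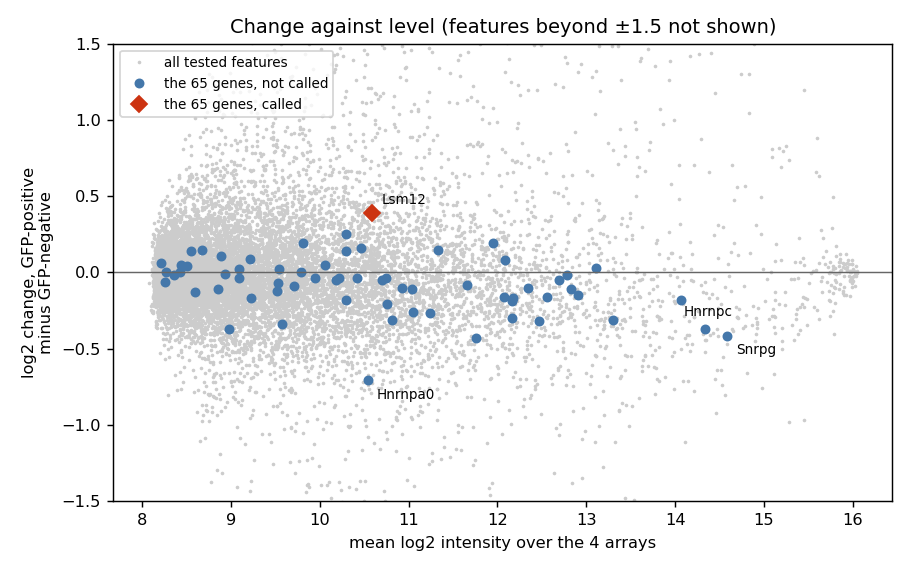
Log2 change against mean log2 intensity over the 4 arrays for the tested features within 1.5 log2 units of 0 (grey) and the 65 RNA-processing genes (colour). The 17 genes with a mean of 12 to 15 lie mostly below 0 (median -0.16), and the called Lsm12 lies at mid intensity.

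The groups did not overlap for 29 of the 65 genes, 8 of them higher and 21 lower in GFP-positive cells, while across all tested features 55.8% did not overlap, 24.9% higher and 31% lower. Related genes outside the symbol rule gave a similar picture in the calls. Of 20 other spliceosome subunits, 26 other splicing regulators and kinases, 5 further RNA helicases, 9 genes of the exon junction and mRNA export and 24 polymerase cofactors, none was called. Their median changes were -0.02, -0.06, 0.01, -0.21 and -0.03, and 2, 8, 0, 2 and 5 of them had an unadjusted p under 0.05. Together with the polyadenylation factors, 2 of 96 such genes were called, Pabpn1 and Ell2, beside the 11.1% of all tested features given above. The groups did not overlap for 41 of the 96, 13 higher and 28 lower. The exon junction and export list leaned most, with 7 of its 9 genes lower without an overlap and 1 higher.

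The 21 genes with a named probe that was detected on fewer than 2 arrays cannot be compared. They include Hnrnpll and Hnrnpf, both known regulators of mRNA processing in plasma cells, and also Hnrnpd, Hnrnpr, Cpsf3, Cstf2t, Ddx23, Ddx27, Ddx3y, Ddx51, Ddx56, Ddx60, Dhx29, Dhx58, Lsm5, Polr2c, Polr2d-ps2, Prpf4b, Prpf40b, Snrpb2 and Snrpn. Their probes read between 7.81 and 8.26, inside or next to the range of undetected probes, which is a statement about these probes and not about the transcripts. A further 94 genes of the RefSeq table match the symbol rule and were not analysed here.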

How the data were processed

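The 4 arrays fall into 2 GFP-positive and 2 GFP-negative samples by their labels. The deposited log2 values were made with lumi, per the submitters' processing notes; the sources used here give no version, background step or transformation. Sorted columns differed by at most 0.00267, with a median of 8.086 and a range of 7.711 to 16.07. The deposited detection p-values, per the file headers, were used to count arrays with a p under 0.05 for each probe. The 4 unnormalized signal columns carry names that match no label and were not used. For arrays, the number of arrays limits the precision.

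Probe names beginning scl0 or scl00 were read as NCBI Gene IDs and given symbols from RefSeq (GRCm38.p6): 9807 of 11868 such probes of 45992 in all. Probes detected on at least 2 arrays were kept, each gene by its brightest probe. The difference, GFP-positive minus GFP-negative, came from lmFit and eBayes in limma 3.58.1 (R 4.3.3), with 2 residual and 3.4 prior degrees of freedom and no block, two-sided, and adjusted over 15215 features by Benjamini-Hochberg. The fit was tested on simulated data. Upstream windows come from RefSeq. Figures were drawn with matplotlib 3.10.9.

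The genes, lists and alternatives were chosen with earlier results of these data known. Genes named were those called (up to 24), the largest change and the brightest probe in each role group, a few genes known from antibody mRNA processing, and up to 3 called genes of each related list, 27 in all. Others are given by their values to complete a group. Genes of the symbol rule that are withheld (2) are not reported here: they stayed in the fit over all features and enter no count or median of the described genes. Alternatives were the detection filter, the mean of a gene's probes, cyclic loess, an intensity trend, the replicate number as a block and leaving out each array.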

Additional observations from a re-analysis of the deposited data

How the results depend on the processing

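The call rests on few arrays. The count of higher genes (1, Lsm12) was 0 when a gene's probes were averaged and 0 with an intensity trend, and 0 with any 1 array left out, so its leave-one-out range is 0 to 0. The count of lower genes (0) ran between 0 and 1 when an array was left out. It was 1 without GFP-positive replicate 2 (Lsm7) and without GFP-negative replicate 1 (Hnrnpa0), and 0 without either of the other arrays. With the replicate number as a block it was 11 (Snrpg, Hnrnpc, Snrpd3, Srsf5, Hnrnph1, Lsm7, Ddx18, Hnrnpk, Hnrnpa0, Ddx55 and Cpsf7), while the count of higher genes stayed at 1. Over all features the block gave 1861 higher and 2125 lower, against 887 and 805 without it. The labels do not say that a number pairs arrays. Differences between replicates 1 and 2 correlated between the groups at 0.437 across all features and 0.34 across the 65 genes, and in 23 of the 65 both replicate 1 arrays lay on the same side of both replicate 2 arrays (35.4%, against 26.4% of all features). The median change of the 65 genes was 0.00 after cyclic loess and between -0.07 and -0.03 with an array left out. Of the 65 genes, 11 changed sign after cyclic loess, 2 with probes averaged and 27 with at least 1 array left out. None of these 30 genes was called in the fit reported above. Among the named genes these were, after cyclic loess Sf3b5 (0.01), Polr2l (0.03) and Srsf1 (0.11), and with an array left out Srsf5 (-0.68 to 0.03), Srsf2 (-0.03 to 0.09), U2af2 (-0.47 to 0.04), Sf3b5 (-0.22 to 0.06), Prpf38a (-0.02 to 0.29), Prpf3 (-0.05 to 0.09), Polr2h (-0.26 to 0.03) and Srsf1 (-0.21 to 0.16). Of 270 alternative values of the 27 named genes, 237 kept their sign and side of the threshold, 10 lost a call, 10 gained one and 13 changed sign.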
